A study of Homo sapiens with 18 samples.

Results

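The interaction of NCS and MD-224 asks whether cells exposed to NCS answered MD-224 differently from cells that were not. NCS (neocarzinostatin) is a drug that breaks DNA, and MD-224 is a compound that leads to degradation of the MDM2 protein. For each gene the interaction was the change from NCS alone to NCS with MD-224, minus the change from DMSO to MD-224, both on the scale log2(normalized count + 1). A value of 1 means that the fold change with MD-224 was 2-fold larger after NCS than without it, and a value of −1 that it was 2-fold smaller. The interaction used 12 of the 18 libraries of the series and all 3074 listed genes, of which 3073 passed the filter on low values and were tested.

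SJSA-1, an established human osteosarcoma line that carries an amplified MDM2 gene, was grown in 4 groups of 3 libraries. All cells were treated for 72 h with either the vehicle DMSO or NCS at 1 µg/mL, and this treatment was renewed for the last 24 h. At that point DMSO or 1 µM MD-224 was added. The groups were thus DMSO throughout, MD-224 for 24 h without NCS, NCS for 72 h with DMSO, and NCS for 72 h with MD-224 in the last 24 h. Another pair of groups received MI-1061, an MDM2 inhibitor, at 1 µM in place of MD-224. The protocol text writes the digits of the inhibitor's name in another order than the sample titles do, and it names DMSO as the growth medium. The labels do not say whether the replicates were separate cultures, so the p-values below measure the spread between these libraries, which may be technical. In bulk RNA, more cells that express a gene and more RNA per cell cannot be told apart.

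MDM2 is a ubiquitin ligase that binds the transcription factor p53, covers its activation domain and marks it for destruction. DNA breaks activate kinases that modify p53 and MDM2 and loosen this contact, and loss of MDM2 frees p53 directly. Free p53 switches on genes for cell-cycle arrest such as CDKN1A, for cell death such as BAX and FAS, for DNA repair such as POLH and XPC, and for feedback, above all MDM2 itself.

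Some properties of the data bear on every value. The table is a selection: each listed gene has a mean with NCS and MI-1061 at least 1.75-fold (median 3-fold) above that with DMSO. The DMSO libraries enter both that selection and the interaction, in which a low DMSO value makes the estimate lower. The normalized counts of the listed genes summed to between 4594460 and 10630547 per library, and in 10 of the 12 libraries 4490870 to 10535849 reads could be recovered. The SD of a library's log2 deviations from its group mean was 0.385 to 0.491 with DMSO, 0.318 to 0.435 with MD-224, 0.235 to 0.288 with NCS and 0.285 to 0.328 with both. The degrader acts on the MDM2 protein, so MDM2 mRNA is no check of it. Of 13 markers of bone-forming and osteosarcoma cells 4 were listed (COL1A2, SPARC, SPP1 and BMP2), and their summed normalized counts were 70588 to 88323 with DMSO, 108332 to 151716 with MD-224, 144311 to 171607 with NCS and 167879 to 199380 with both treatments.

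The response to MD-224 differed between cells without and after NCS in 346 genes. Limma called the interaction positive in 125 genes, 4.07% of the 3073 tested, and negative in 221, 7.19%, at an adjusted p under 0.05. The median interaction of all tested genes was −0.14. Positive calls included the receptor gene GRM8, the 14-3-3 gene SFN, the EGF receptor ligand AREG and the cell-cycle repressor E2F7. Negative calls included TMEM132B, the complement receptor gene C5AR2 and genes of the lysosome. Both p53 targets and histone genes had calls in either direction. Those on the positive side included the p53 targets E2F7, SFN and POLH and the histone gene HIST1H2BJ. In the 12 fits that each left out 1 library, the call of SFN was lost in 9 and that of POLH in 7. The calls of E2F7 and HIST1H2BJ were lost in 0. Across the 3073 genes the log2 responses to MD-224 without and after NCS, which come from separate libraries, had a Pearson correlation of 0.0993 and a Spearman correlation of 0.00405. All genes share the libraries and the selection, so these correlations are a description.

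**Figure D1:**
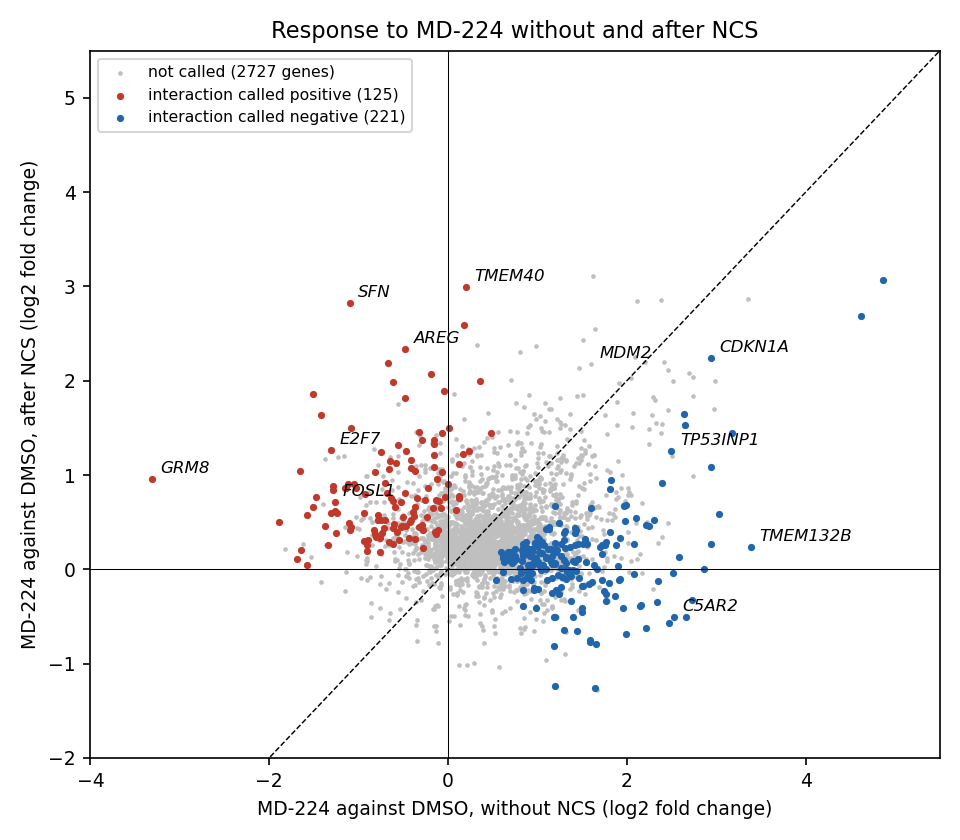
Each point is 1 of 3073 genes, with the log2 fold change for MD-224 against DMSO in cells without NCS on the horizontal axis and in cells after NCS on the vertical axis, and the dashed line marks equal responses. The 125 genes with a positive interaction (red) lie above it, mostly near or below 0 on the horizontal axis, and the 221 with a negative one (blue) lie below it, mostly near 0 on the vertical axis.

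The split into positive and negative calls depended on scaling, and the number of calls on single libraries. With TMM scaling, which moved the median interaction by 0.16 to 0.02, 201 genes were positive and 127 negative, so the share of positive calls went from 36.13% to 61.28%. All 125 positive calls and 127 of the 221 negative ones were kept under TMM. As the shift was upward, the keeping of positive calls is a weak check of them. The same limit holds for positive estimates, named below, that passed only with TMM scaling. In place of 346 calls there were 179 without MD-224 replicate 3, 182 without NCS replicate 2, 172 without NCS replicate 3 and 219 without replicate 1 of NCS with MD-224. Without replicate 3 of every group, which leaves 2 libraries each, 4 calls remained: GRM8, E2F7, SDC1 and MXD4. In the 12 fits that each left out 1 library, 56 of the 125 positive and 92 of the 221 negative genes passed every time.

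The negative calls were genes that MD-224 raised without NCS. All 221 were called higher there, where 39.9% of the tested genes were, and 203 of them passed in neither direction after NCS. The other 18 were called higher after NCS too, where 15.1% of all tested genes were. NCS alone raised 216 of the 221, beside 54% of all tested genes. Their median log2 change against DMSO was 1.21 with MD-224, 1.25 with NCS and 1.34 with both. The mean with both treatments lay above the larger single treatment in 99 of the 221 genes and below it in 122, beside 2388 and 685 of the 3073 tested. On the linear scale it lay below the sum of the single effects in 214, beside 1459 of all tested genes. The interaction subtracts the response to MD-224 without NCS, so these counts describe the calls and are not independent of them.

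The positive calls differed in form. MD-224 without NCS lowered 64 of the 125 genes and raised 0, where 2.8% of all tested genes were called lower and 39.9% higher. After NCS it raised 69 of the 125, where 15.1% of all tested genes were called higher. A fall without NCS and a rise after it were both called in 17 genes, beside the same 17 among all 3073 tested. NCS alone lowered 30 of the 125 and raised 16, where 1.3% of all tested genes were called lower and 54% higher. Their median log2 change against DMSO was −0.59 with MD-224, −0.17 with NCS and 0.55 with both. The mean with both treatments lay above the larger single treatment in 124 of the 125 genes, beside 2388 of the 3073 tested. In cells given MD-224, NCS raised 113 of them and lowered 0, where 39% of all tested genes were called higher and 0.586% lower. These counts share libraries with the interaction in the same way.

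**Figure D2:**
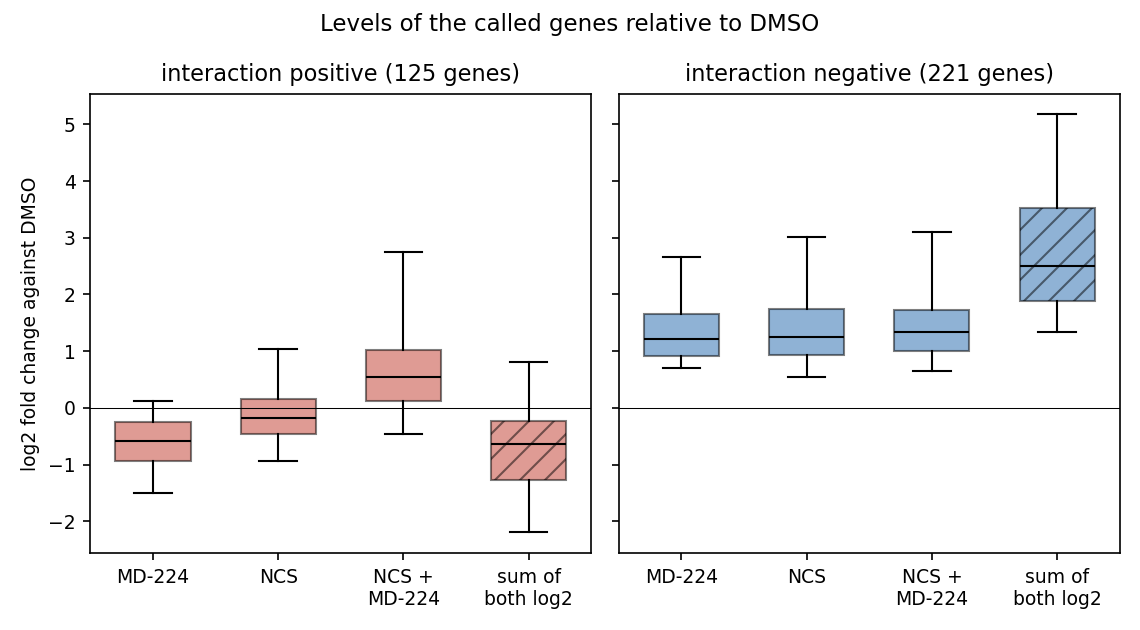
Boxes show the log2 fold change against DMSO of the 125 genes with a positive (left) and the 221 genes with a negative interaction (right) under MD-224, NCS and both, beside the sum of the 2 single log2 changes (hatched). Boxes span the quartiles, lines mark medians and whiskers the 5th to 95th percentile of genes. With both treatments the positive genes have a median of 0.55, above either single treatment, and the negative genes one of 1.34, beside 1.21 and 1.25 with the single treatments.

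Fewer genes passed for MD-224 after NCS than without it. Without NCS 1225 genes were higher and 86 lower. After NCS 465 were higher and 0 lower by limma, although 3 genes were lower at an unadjusted p under 0.05. Run on the libraries with recovered reads, edgeR called 165 higher and 0 lower. Those libraries lack NCS replicate 3 and replicate 2 of NCS with MD-224, so the counts of 165 and 465 rest on unlike sets of libraries. Replicate numbers paired the libraries of each of these comparisons, but the limma counts above and the adjusted p-values are from the fit without pairing. With the replicate number as a block 1495 genes were higher and 118 lower without NCS, and 755 higher and 0 lower after it. The count of 465 became 186 without replicate 1 of NCS with MD-224, and 298, 287 and 283 without NCS replicates 1, 2 and 3. With TMM scaling 327 genes were higher and 357 lower without NCS, and 116 higher and 6 lower after it. TMM was computed on the listed genes alone. It moved their median log2 change with MD-224 from 0.48 to −0.007 without NCS and from 0.30 to −0.02 after it. A rise common to the listed genes is thus scaled away, and directions with TMM are relative to these genes.

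E2F7 had the smallest adjusted p. It encodes an atypical E2F factor that represses cell-cycle genes and is itself a p53 target (chromosome 12, 77021251 to 77065569, GRCh38.p14). Its normalized counts in replicates 1, 2 and 3 were 7304, 7257 and 6029 with DMSO, 2747, 2953 and 2583 with MD-224, 3846, 2712 and 2822 with NCS and 9627, 6307 and 6672 with both. Either treatment alone lay below all DMSO libraries, and the libraries with both treatments overlapped those with DMSO. MD-224 lowered E2F7 to 0.403-fold without NCS (limma adjusted p = 1.92e-05) and raised it 2.40-fold after NCS (limma adjusted p = 9.33e-05). The interaction was 2.57 (95% confidence interval 2.06 to 3.08; limma adjusted p = 1.62e-05), and the adjusted p was 9.34e-07 to 0.0406 over 24 alternatives.

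GRM8, which encodes a metabotropic glutamate receptor, had the largest positive estimate in the table. Its normalized counts were 42.7, 48.1 and 66.5 with DMSO, 2.29, 5.15 and 6.28 with MD-224, 44.2, 30.01 and 29.1 with NCS and 91.7, 54.1 and 58.7 with both. The 3 libraries with MD-224 alone stood apart below all others, and those with both treatments lay above those with NCS alone. The fall without NCS passed (log2 −3.31; limma adjusted p = 1.34e-06), while the change after NCS did not (log2 0.95; limma adjusted p = 0.0587). The interaction was 4.26 (SE 0.46; limma adjusted p = 6.89e-05), with an adjusted p of 5.66e-06 to 0.0406 over the alternatives. The estimate rests on low counts in 1 group and ranged from 3.47 to 4.50 over them.

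SDC1 and MXD4 were the other two genes that passed without replicate 3 of every group, and are named for that reason after their values were seen. SDC1, a heparan sulfate proteoglycan of the cell surface, had 8168, 6868 and 8204 with DMSO, 5697, 6587 and 6172 with MD-224, 4677, 3985 and 4067 with NCS and 15909, 11234 and 8798 with both. MD-224 did not pass without NCS (log2 −0.33; limma adjusted p = 0.105) and raised SDC1 2.75-fold after it, an interaction of 1.79 (limma adjusted p = 0.000312). MXD4, a member of the MAX network that opposes MYC, had 1337, 1355 and 1671 with DMSO, 4820.1, 4004 and 5051 with MD-224, 3774, 4010.4 and 4311 with NCS and 4036, 3772 and 4273 with both. It was at a like level with either treatment or both, and its interaction was −1.67 (limma adjusted p = 9.85e-05).

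FOSL1, a subunit of the AP-1 transcription factor, was also lowest with MD-224 alone. Its normalized counts were 12916, 6065 and 6140.4 with DMSO, 3980.2, 3391 and 2550.4 with MD-224, 6362, 4757 and 4676 with NCS and 10113, 6666 and 9230.4 with both. All libraries with MD-224 alone lay below all others, those with both treatments lay above those with NCS alone, and DMSO replicate 1 stood apart from the other two. MD-224 lowered FOSL1 to 0.415-fold without NCS (limma adjusted p = 0.000623), and after NCS its log2 change was 0.71 (limma adjusted p = 0.0587). The interaction was 1.98 (SE 0.35; limma adjusted p = 0.00249).

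AREG and TMEM40 were high in the libraries with both treatments. AREG, a growth factor that binds the EGF receptor, had 70.04, 49.97 and 28.6 with DMSO, 39.01, 48.9 and 18.8 with MD-224, 78.5, 93.2 and 93.4 with NCS and 829.9, 393 and 275 with both. Each library with both treatments exceeded every other library. MD-224 did not pass without NCS (log2 −0.48; limma adjusted p = 0.366) and raised AREG 5.04-fold after it, and the interaction was 2.81 (SE 0.58; limma adjusted p = 0.00731). TMEM40, a transmembrane protein gene, had 8.75, 9.61 and 10.2 with DMSO, 18.4, 16.7 and 4.19 with MD-224, 17.7, 21.3 and 23.04 with NCS and 311, 134 and 119 with both. It was 7.98-fold higher with MD-224 after NCS, with an interaction of 2.79 (SE 0.63; limma adjusted p = 0.0111). In both genes replicate 1 was the highest of the 3 libraries with both treatments.

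**Figure D3:**
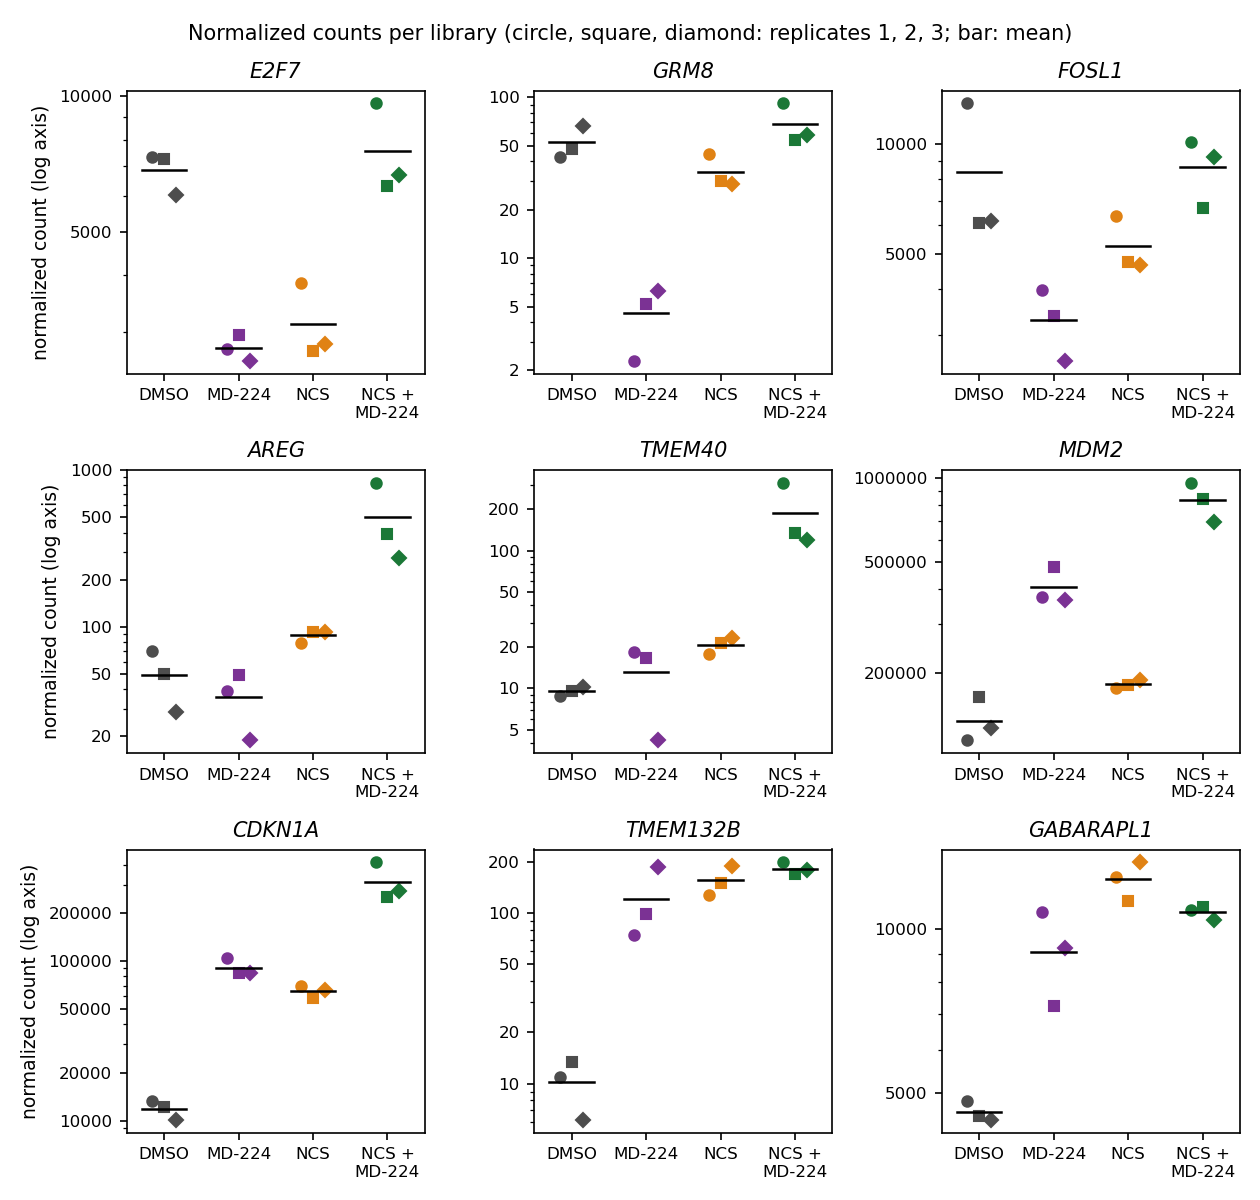
Normalized counts on a log axis for 9 genes in the 12 libraries, by group, with a marker for each replicate number and a bar for the mean of 3. GRM8 and FOSL1 are lowest with MD-224 alone, and E2F7 is low with either treatment alone, where its groups overlap. These genes lie near the DMSO values with both treatments. AREG and TMEM40 are highest with both, and TMEM132B and GABARAPL1 are raised by each treatment.

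DHRS2, a short-chain dehydrogenase gene, was likewise high with both treatments, with 89.7, 246 and 91.1 with DMSO, 123, 218 and 109 with MD-224, 144, 161 and 128 with NCS and 1274, 1209.6 and 428 with both, and its interaction was 2.41 (SE 0.57; limma adjusted p = 0.013). Replicate 3 was the lowest of the libraries with both treatments. PLCXD2 and CCDC148 rose 3.52-fold and 4.21-fold with MD-224 after NCS and did not pass without it, with interactions of 2.29 and 2.26. TCF15 and ZIC5, which encode transcription factors of embryonic development, fell with MD-224 without NCS to 0.27-fold and 0.36-fold and did not pass after NCS. Their interactions were 2.39 (limma adjusted p = 0.00244) and 2.23 (limma adjusted p = 0.00361).

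SFN, COL17A1 and DRAXIN had large estimates with wide intervals. SFN encodes 14-3-3 sigma, a p53 target that holds cells before mitosis, and had 37.2, 15.4 and 24.6 with DMSO, 13.8, 34.8 and 2.09 with MD-224, 15.7, 30.01 and 25.5 with NCS and 232, 347 and 58.7 with both. All libraries with both treatments were above all others, and replicate 3 was the lowest of its group with MD-224 alone and with both treatments. The interaction was 3.92 (95% confidence interval 1.38 to 6.45; limma adjusted p = 0.0452), and the call was lost without DMSO replicates 1 and 3, MD-224 replicates 1 and 3, NCS replicates 1, 2 and 3 or NCS+MD-224 replicates 1 and 2 (limma adjusted p 0.0527 to 0.12), each left out alone, as in the statements of this kind for other genes. COL17A1, a collagen of hemidesmosomes, had 51.4, 7.69 and 10.2 with DMSO, 13.8, 12.9 and 5.23 with MD-224, 80.5, 114 and 93.4 with NCS and 573, 559.9 and 257 with both, and DMSO replicate 1 stood apart from replicates 2 and 3. Its interaction of 2.85 (limma adjusted p = 0.0417) was lost without DMSO replicate 1, MD-224 replicates 2 and 3, NCS replicates 1, 2 and 3 or NCS+MD-224 replicates 1 and 2 (limma adjusted p 0.0517 to 0.112). DRAXIN, an axon guidance gene, had an interaction of 2.60 (limma adjusted p = 0.0294), lost without MD-224 replicate 3, NCS replicates 2 and 3 or NCS+MD-224 replicates 1 and 2 (limma adjusted p 0.061 to 0.0797). Over all alternatives the adjusted p was 0.0016 to 0.273 for SFN, 0.0035 to 0.255 for COL17A1 and 0.00097 to 0.197 for DRAXIN.

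Among the negative calls TMEM132B, which encodes a transmembrane protein, had the largest estimate of the genes chosen for description. Its normalized counts were 10.9, 13.5 and 6.14 with DMSO, 74.6, 99.2 and 187 with MD-224, 128, 151 and 189 with NCS and 198, 168 and 179 with both. All DMSO libraries lay below all others, and the libraries with NCS and with both treatments overlapped. MD-224 raised it 10.5-fold without NCS (limma adjusted p = 1.13e-06), and after NCS the log2 change was 0.24 (limma adjusted p = 0.653). The interaction was −3.15 (SE 0.47; limma adjusted p = 0.000743). C5AR2, a receptor for the complement fragment C5a, had 6.57, 20.2 and 6.14 with DMSO, 68.8, 43.8 and 69.1 with MD-224, 90.3, 85.3 and 77.6 with NCS and 78.04, 47.5 and 55.7 with both. Here too the groups with NCS overlapped, and the interaction was −3.03 (SE 0.56; limma adjusted p = 0.00355).

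PRMT8, an arginine methyltransferase gene, RAB7B, a GTPase gene of endosomal and lysosomal transport, and PKD1L2, a gene of the polycystin family, were of the same form. PRMT8 went from 6.20 ± 2.19 (mean ± SD, n = 3) with DMSO to 57.9 ± 18.3 with MD-224, 61.9 ± 16.8 with NCS and 94.99 ± 30.7 with both, an interaction of −2.44 (limma adjusted p = 0.00555). RAB7B had 13.1, 5.77 and 14.3 with DMSO, 68.8, 65.03 and 67.01 with MD-224, 147, 147 and 103 with NCS and 158, 154 and 119 with both, with an interaction of −2.45 (limma adjusted p = 0.00272). For PKD1L2 the interaction was −2.13 (SE 0.29; limma adjusted p = 0.00053). Also among the 12 leading negative genes were KLHL38 (−2.83), the noncoding RNAs ZMIZ1-AS1 (−2.66) and PCAT6 (−2.53), SULF1, a sulfatase of heparan sulfate (−2.34), and ABCC6P1 (−2.03), a pseudogene whose reads cannot be told apart with certainty from those of its parent gene. The calls of PRMT8, RAB7B and PKD1L2, and those of TMEM132B and C5AR2, held when any single library was left out.

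MDM2 and CDKN1A are the usual readouts of p53. MDM2 (chromosome 12, 68808172 to 68850686) had 114681, 163950.0 and 126598 with DMSO, 375912, 481272 and 366311 with MD-224, 177192, 180870.0 and 188863 with NCS and 961730.0, 838975 and 697739 with both. The 4 groups did not overlap, and their order was DMSO, NCS, MD-224 and both. MD-224 raised it 3.03-fold without NCS and 4.53-fold after it. The interaction of 0.58 (95% confidence interval 0.08 to 1.08) did not pass (limma adjusted p = 0.128), but passed with TMM scaling (log2 0.75; limma adjusted p = 0.036).

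CDKN1A, which encodes the cell-cycle inhibitor p21 (chromosome 6, 36676463 to 36687332), had 13252, 12142 and 10129 with DMSO, 104007, 83659 and 84506 with MD-224, 69416, 58896 and 65384 with NCS and 412513, 251904 and 271554 with both. The groups stood in the same order without overlap. MD-224 raised it 7.67-fold without NCS and 4.73-fold after it, an interaction of −0.70 (95% confidence interval −1.16 to −0.24; limma adjusted p = 0.0484). The call was lost with TMM scaling (log2 −0.53; limma adjusted p = 0.104) and without DMSO replicates 2 and 3, MD-224 replicates 1, 2 and 3, NCS replicates 1, 2 and 3 or NCS+MD-224 replicates 2 and 3 (limma adjusted p 0.0545 to 0.116), and over the alternatives the adjusted p was 0.00585 to 0.489. The sign depended on the scale. On the linear scale the mean of 311990.0 ± 87608 (SD, n = 3) with both treatments lay above the 143448 that adding the single effects would give. The same held for 6 other genes with a negative call, among them the p53 targets TP53INP1, BTG2 and SPATA18.

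p53 targets for arrest and feedback responded to MD-224 in both settings. Of the 18 listed genes MD-224 raised 12 and lowered 1 without NCS and raised 17 after NCS, where 39.9%, 2.8% and 15.1% of all tested genes were called, with median log2 changes of 1.53 and 1.26. The interaction was positive in 2, E2F7 and SFN, and negative in 6, CDKN1A, TP53INP1, PTCHD4, BTG2, ZMAT3 and TRIM22, beside 4.07% and 7.19% of all tested genes. The list's median interaction was −0.19, beside −0.14 for all tested genes, and with TMM scaling 4 were positive and 4 negative. TP53INP1, a regulator of autophagy and cell death, had 1145, 1279 and 1499.8 with DMSO, 7619, 6668 and 7827 with MD-224, 4809.8, 4414 and 4857 with NCS and 14296, 11216 and 8687 with both. The groups again did not overlap, and the rise with MD-224 went from 5.65-fold without NCS to 2.38-fold after it (log2 −1.25, SE 0.21; limma adjusted p = 0.00188). PTCHD4, a patched-domain gene, had 74.4, 168 and 80.8 with DMSO, 928, 938 and 879 with MD-224, 267, 278 and 241 with NCS and 951, 654 and 578 with both; the groups with MD-224 alone and with both treatments overlapped, and its interaction was −1.73 (limma adjusted p = 0.00906). For ZMAT3, an RNA-binding protein gene, the rise was 3.55-fold without and 1.93-fold after NCS (interaction −0.88; limma adjusted p = 0.0119).

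The 14 listed p53 targets for cell death had 0 calls in the interaction in either direction, near the 4.07% positive and 7.19% negative of all tested genes. Their median was 0.08, and 2 were positive with TMM scaling. MD-224 raised 10 and lowered 1 of them without NCS and raised 9 after NCS, beside 39.9%, 2.8% and 15.1% of all tested genes. BAX, which opens the mitochondrial outer membrane, rose 2.07-fold and 1.54-fold, and the death receptor gene FAS 2.48-fold and 2.90-fold. PMAIP1 (NOXA) and APAF1, a scaffold of the apoptosome, had estimates of 0.96 and 1.12 (limma adjusted p = 0.0515 and 0.0542), and both passed with TMM scaling (limma adjusted p = 0.0246 and 0.0253). APAF1 had 2827, 1283 and 2173 with DMSO, 1551, 918 and 1361 with MD-224, 1770.1, 1170.2 and 1368 with NCS and 2535, 1648 and 1702 with both, and its groups overlapped.

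Among the 19 listed p53 targets of repair, metabolism and the lysosome, 1 interaction was positive and 1 negative, with a median of −0.19. That is 5.26% in each direction, near the 4.07% positive and 7.19% negative of all tested genes. POLH, the polymerase that copies past UV lesions, had 2132, 1093 and 1754 with DMSO, 2155, 1771 and 1514 with MD-224, 1596, 1337 and 1334 with NCS and 4301, 3136 and 2679 with both. All libraries with both treatments lay above all others, and MD-224 raised POLH 2.33-fold after NCS but did not pass without it (limma adjusted p = 0.557). The interaction of 1.05 (limma adjusted p = 0.0349) was lost without DMSO replicates 1 and 3, MD-224 replicates 2 and 3, NCS replicates 2 and 3 or NCS+MD-224 replicate 1 (limma adjusted p 0.0571 to 0.0922). SPATA18, which acts in mitochondrial quality control, rose 6.29-fold without and 2.90-fold after NCS. Its interaction of −1.12 (limma adjusted p = 0.0324) was lost without DMSO replicates 1 and 3, MD-224 replicates 2 and 3, NCS replicates 1, 2 and 3 or NCS+MD-224 replicate 3 (limma adjusted p 0.0526 to 0.081). Over the alternatives the adjusted p was 0.000546 to 0.349 for POLH and 0.00173 to 0.398 for SPATA18.

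**Figure D4:**
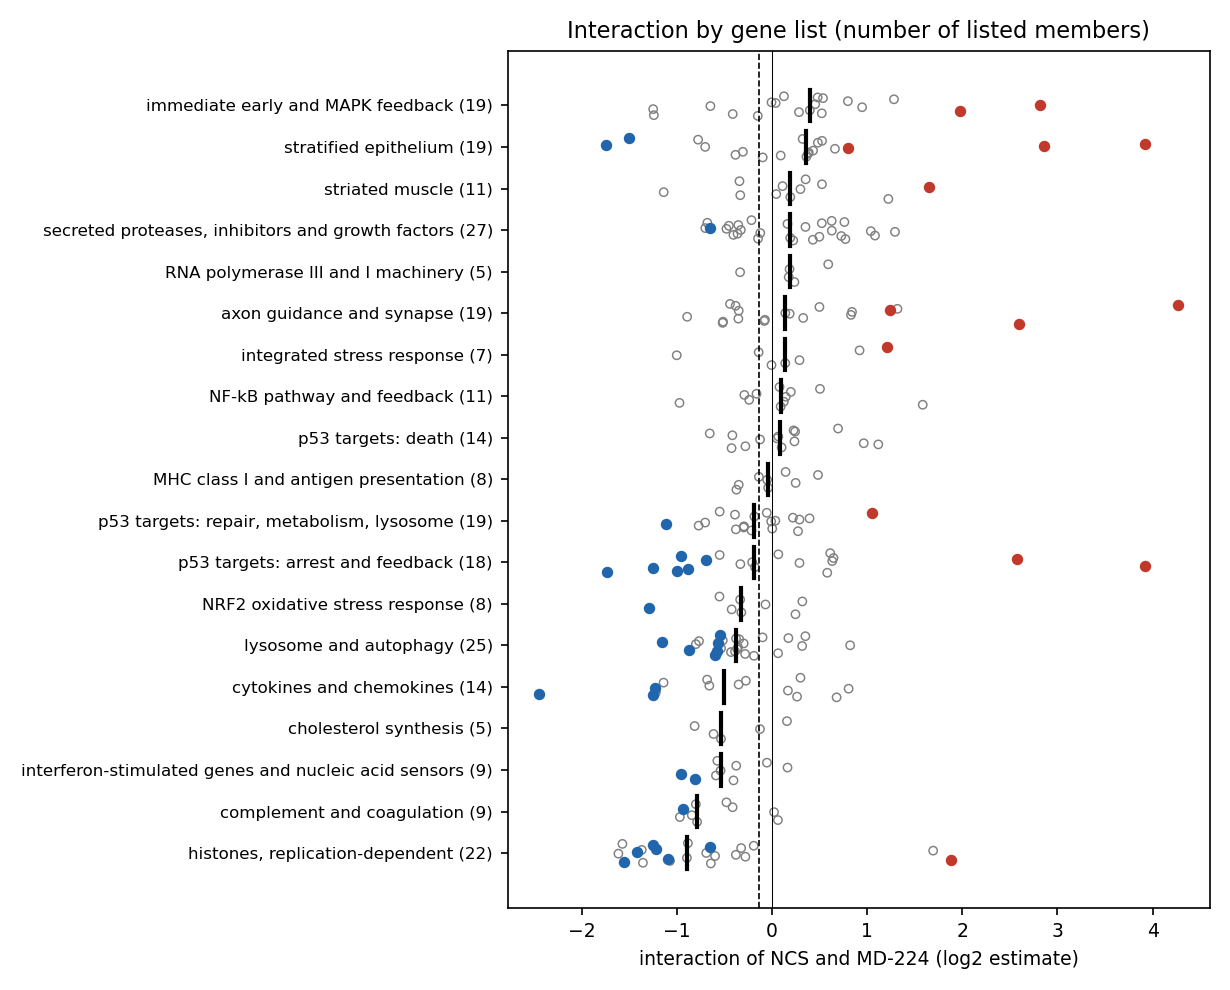
Each circle is a listed gene, placed by its interaction (log2) in its gene list, with the number of listed members in brackets; filled circles passed (red positive, blue negative), black bars are list medians and the dashed line is the median of all tested genes, −0.14. Medians run from −0.89 for histones to 0.40 for immediate early genes.

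Lysosome and autophagy genes degrade and recycle cell material. Of 25 listed members 6 had a negative interaction and 0 a positive one, with a median of −0.38. Of all tested genes 7.19% were negative and 4.07% positive. MD-224 raised 20 of the 25 without NCS and 7 after NCS, where 39.9% and 15.1% of all tested genes rose, and NCS alone raised 22, beside 54%. GABARAPL1, which helps autophagosomes close, had 4834, 4551 and 4471 with DMSO, 10767, 7235 and 9224 with MD-224, 12494, 11272 and 13264 with NCS and 10857, 10978 and 10420.2 with both. The 3 libraries with NCS alone lay above those with both treatments, but MD-224 did not pass after NCS (log2 −0.20; limma adjusted p = 0.448). The interaction was −1.15 (SE 0.24; limma adjusted p = 0.00657). WIPI1, an early autophagy factor, had 2277, 2386 and 2321 with DMSO, 4657, 4424 and 4792 with MD-224, 4955, 4948 and 5339.7 with NCS and 5649, 5347 and 5578 with both and an interaction of −0.87 (limma adjusted p = 0.00702). MAP1LC3B, the LC3 protein of autophagosomes, had an interaction of −0.60 (limma adjusted p = 0.0106), and the cathepsin genes CTSD and CTSB, lysosomal proteases, of −0.58 and −0.57. The last of the 6 was ASAH1, acid ceramidase (−0.55). With TMM scaling 4 were negative, without CTSB and ASAH1, and 1 was positive.

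Histone transcripts had the lowest median of the lists. Replication-dependent histone mRNAs normally end without a poly(A) tail, so they are sampled in part in poly(A) RNA, and their near-identical copies make single values uncertain. Of 22 listed members 6 were negative and 1 positive, with a median of −0.89. The shares of all tested genes were 7.19% negative and 4.07% positive. NCS alone raised 21 of the 22, beside 54% of all tested genes. MD-224 raised 11 without NCS, a share near the 39.9% of all tested genes, and 1 after NCS, beside 15.1%. HIST1H4H had 58.00, 52.9 and 69.6 with DMSO, 159, 136 and 141 with MD-224, 388, 529.8 and 509 with NCS and 411, 484 and 539.7 with both; the groups with NCS overlapped, and the interaction was −1.25 (SE 0.28; limma adjusted p = 0.0115). HIST1H2BK had an interaction of −0.65 (limma adjusted p = 0.0139), and the other negative calls were HIST1H2BC, HIST1H2BG, HIST1H2BD and HIST1H2AC. The exception was HIST1H2BJ, with 95.2, 166 and 156 with DMSO, 118, 83.7 and 76.4 with MD-224, 223.7, 209 and 183 with NCS and 682, 513 and 381 with both, all libraries with both treatments above all others, and an interaction of 1.88 (SE 0.34; limma adjusted p = 0.00272). With TMM scaling 2 members were negative (HIST1H2BG and HIST1H4H) and 1 positive.

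Of 14 listed cytokine and chemokine genes 3 were negative and 0 positive, beside 7.19% and 4.07% of all tested genes, with a median of −0.51. CSF1, the macrophage growth factor, had 6239.7, 8680.1 and 9770.3 with DMSO, 15639, 18165 and 20907 with MD-224, 13384, 12447 and 13469.8 with NCS and 14056, 12278 and 10736 with both. MD-224 raised it 2.24-fold without NCS, and after NCS its log2 change was −0.09 (limma adjusted p = 0.738), an interaction of −1.25 (limma adjusted p = 0.00368). IL7, a lymphocyte growth factor, had 196, 185 and 267 with DMSO, 339.6, 361 and 456 with MD-224, 300.2, 283 and 277 with NCS and 221, 199 and 237 with both; the libraries with both treatments lay below all those with NCS or MD-224 alone, and the interaction was −1.23 (SE 0.29; limma adjusted p = 0.013). TNFSF15, a TNF family ligand, had an interaction of −2.44 (limma adjusted p = 0.0353; 0.0016 to 0.381 over the alternatives), lost without DMSO replicates 1 and 3, MD-224 replicates 2 and 3, NCS replicates 2 and 3 or NCS+MD-224 replicates 1 and 3 (limma adjusted p 0.0592 to 0.0936). IL1B, IL6 and CXCL1 did not pass (log2 −0.35, −1.22 and −1.14).

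Of the 9 listed interferon-stimulated genes and nucleic acid sensors 2 were negative and 0 positive, beside 7.19% and 4.07% of all tested genes, with a median of −0.54. STAT2, which carries interferon signals to the nucleus, had 2134, 2437 and 2668 with DMSO, 4627, 5594 and 5002 with MD-224, 4828, 5565 and 5201 with NCS and 6418, 6437 and 5807 with both, and MD-224 raised it 2.10-fold without NCS and did not pass after it (limma adjusted p = 0.129). The interaction was −0.81 (SE 0.16; limma adjusted p = 0.00494). TRIM22, an antiviral gene and p53 target, rose 3.51-fold without and 1.80-fold after NCS (interaction −0.96; limma adjusted p = 0.0128). TMEM173, which encodes the sensor STING, did not pass (log2 −0.54; limma adjusted p = 0.0568), nor did ISG15 (log2 −0.41). All 11 listed genes of the NF-kB pathway were raised by NCS alone, beside 54% of all tested genes. In the interaction 0 had a call, near the 4.07% positive and 7.19% negative of all tested genes, with a median of 0.09. BIRC3, an inhibitor of apoptosis, passed with TMM scaling (log2 1.75; limma adjusted p = 0.0435). The 8 genes of MHC class I presentation had 0 calls. The series concerns RNA polymerase III, of whose machinery, with that of polymerase I, 5 of 44 listed genes were in the table; 0 had a call, and POLR1A passed with TMM scaling (log2 0.40; limma adjusted p = 0.0363).

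Immediate early and MAPK feedback genes answer growth factor signals within minutes to hours. Of 19 listed members 2 were positive, FOSL1 and AREG, and 0 negative, with a median of 0.40, where 4.07% of all tested genes were positive and 7.19% negative. An estimate above 0 was found in 13 of the 19, beside 1249 of the 3073 tested. With TMM scaling 5 were positive, the others being DUSP2, DUSP5 and IER5. DUSP2, a phosphatase that switches MAP kinases off, had 85.4, 51.9 and 42.97 with DMSO, 20.7, 26.4 and 16.8 with MD-224, 114, 97.9 and 92.1 with NCS and 112, 102 and 67.8 with both. MD-224 lowered it to 0.374-fold without NCS and did not pass after it, and the interaction was 1.28 (limma adjusted p = 0.0657). Of 7 genes of the integrated stress response 1 was positive: PSAT1, an enzyme of serine synthesis, with 3240.2, 5121 and 4199.7 with DMSO, 2056, 2359 and 2225 with MD-224, 1843, 1951 and 1847 with NCS and 3101, 2350.2 and 1757 with both. Both single treatments lowered PSAT1, by log2 changes of −0.90 and −1.13, and its interaction was 1.21 (SE 0.25; limma adjusted p = 0.00669).

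Axon guidance and synapse genes had 3 positive calls and 0 negative among 19, namely GRM8, DRAXIN and EPHB3, and 5 positive with TMM scaling. Of all tested genes 4.07% were positive, or 201 of 3073 with TMM scaling. EPHB3, an ephrin receptor gene, had 596, 367 and 672 with DMSO, 469, 419.8 and 540.2 with MD-224, 398, 381 and 389 with NCS and 1052, 834 and 641 with both, and its interaction was 1.24 (SE 0.29; limma adjusted p = 0.0128). The 19 genes of stratified epithelium were split, 3 positive (SFN, COL17A1 and FLG) and 2 negative. For this list and those below, the shares of all tested genes were 4.07% positive and 7.19% negative. Beside these shares, 1 call in a list is a value of that gene and not a result about the list. KRT4, a keratin of moist epithelia, was one of the latter, with 18.6, 29.8 and 24.6 with DMSO, 120.5, 137 and 90.04 with MD-224, 124, 104 and 99.4 with NCS and 202, 172 and 98.2 with both and an interaction of −1.74 (limma adjusted p = 0.0122). Among complement and coagulation genes C1S, a protease of the classical pathway, was the 1 call of 9 (log2 −0.94; limma adjusted p = 0.0101), and the median was −0.79. Among 8 NRF2 targets the transporter gene ABCC3 was the 1 call, with 534, 642 and 659.9 with DMSO, 1604, 1833 and 1966 with MD-224, 1433, 1548 and 1766 with NCS and 1875, 1750.2 and 2069 with both and an interaction of −1.29 (SE 0.20; limma adjusted p = 0.000957). The 27 genes of secreted proteases, their inhibitors and growth factors had 1 call, for the gelatinase gene MMP2 (−0.65; limma adjusted p = 0.0436), lost with TMM scaling (limma adjusted p = 0.123) and without DMSO replicate 3, MD-224 replicates 2 and 3, NCS replicates 1, 2 and 3 or NCS+MD-224 replicates 1, 2 and 3 (limma adjusted p 0.0617 to 0.105). The 11 muscle genes had 1, for XIRP1 (log2 1.65, limma adjusted p = 0.0481), lost in 11 of the 12 fits that each left out 1 library. The 5 genes of cholesterol synthesis had 0 calls.

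Few markers of other cell types were listed. Of 18 haematopoietic markers 5 were listed (CD68, ITGAM, ITGAX, LAPTM5 and TREM1), and their summed normalized counts were 569.8 to 1256 with DMSO, 1221 to 2077 with MD-224, 3194 to 3779.8 with NCS and 4947 to 5765 with both treatments. NCS alone raised all 5, beside 54% of all tested genes. The 1 call in the interaction was TREM1, a receptor of myeloid cells, with 4.38, 3.84 and 4.09 with DMSO, 18.4, 32.2 and 24.1 with MD-224, 259, 141 and 149 with NCS and 369, 241 and 182 with both (log2 −1.79; limma adjusted p = 0.0395; 0.0173 to 0.354 over the alternatives), lost without DMSO replicates 1, 2 and 3, MD-224 replicates 2 and 3, NCS replicates 1, 2 and 3 or NCS+MD-224 replicates 2 and 3 (limma adjusted p 0.0502 to 0.0984). The part of these markers in the results above was not tested. The 2 listed endothelial markers, the 1 listed epithelial marker and the 4 bone markers had 0 calls. Of all tested genes 4.07% had a positive interaction and 7.19% a negative one.

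The promoters of AREG, SFN and GABARAPL1 are shown because they hold matches to the motifs searched and their genes had interactions of both signs. Sequences are from RefSeq (GRCh38.p14), 5′ to 3′ on the gene's strand, from 250 bases before to 50 bases after the start. Capitals mark matches to a cyclic AMP response element (TGACGTCA) in AREG and GABARAPL1, to an AP-1 site (TGANTCA) in SFN, and to a p53 half-site at the upstream end of GABARAPL1.
AREG, chr4:74444886-74445185, plus strand: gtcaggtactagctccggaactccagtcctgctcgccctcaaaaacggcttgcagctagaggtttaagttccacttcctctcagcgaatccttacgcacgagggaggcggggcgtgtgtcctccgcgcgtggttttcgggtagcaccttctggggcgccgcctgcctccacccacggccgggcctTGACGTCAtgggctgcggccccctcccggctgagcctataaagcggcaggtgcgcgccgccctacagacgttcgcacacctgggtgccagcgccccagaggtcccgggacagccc
SFN, chr1:26862899-26863198, plus strand: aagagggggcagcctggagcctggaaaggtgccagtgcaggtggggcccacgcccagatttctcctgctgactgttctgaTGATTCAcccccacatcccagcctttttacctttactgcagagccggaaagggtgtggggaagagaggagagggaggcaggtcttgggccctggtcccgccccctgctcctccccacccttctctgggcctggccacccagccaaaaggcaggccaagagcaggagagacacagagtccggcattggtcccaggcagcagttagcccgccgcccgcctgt
GABARAPL1, chr12:10212627-10212926, plus strand: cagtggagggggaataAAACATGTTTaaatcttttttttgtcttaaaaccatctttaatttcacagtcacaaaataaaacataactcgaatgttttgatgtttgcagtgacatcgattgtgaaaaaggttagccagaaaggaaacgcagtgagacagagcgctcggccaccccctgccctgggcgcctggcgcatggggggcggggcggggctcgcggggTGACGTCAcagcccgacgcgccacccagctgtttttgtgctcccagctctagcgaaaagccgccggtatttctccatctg
The response element lay 65 bases before the start in AREG, which had a positive interaction, and 30 bases before it in GABARAPL1, which had a negative one. A match is a description of the letters and not of a bound site.

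Promoters were in the RefSeq table for 101 of the 125 positive genes, 162 of the 221 negative genes and 2274 of the 3073 tested, and 7 motifs were searched on both strands, where sites of different motifs may overlap. The AP-1 motif was in 5.94% of the positive and 4.32% of the negative genes, beside 7.3% of the tested genes and 7.76% of all 27305 promoters. The cyclic AMP response element was in 3.96% and 5.56%, beside 3.08% and 1.98%. The p53 half-site was in 5.94% and 8.02%, beside 6.73% and 6.54%. The E-box CACGTG was in 2.97% and 6.17%, beside 9.81% and 7.43%. The E2F motif TTTNGCGC was in 1.98% and 1.85% (1.93% of tested genes), an NF-kB consensus in 0.99% and 0.617% (1.01%) and the forkhead motif TGTTTAC in 1.98% and 2.47% (2.42%). These shares rest on 1 to 13 promoters each.

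The inhibitor MI-1061 was given at the same dose and time, and its interaction with NCS is set beside that of MD-224. The same dose did not give the same response. Without NCS the mean of MDM2 was 135076 with DMSO, 407832 with MD-224 and 1572230 with MI-1061. For CDKN1A the means were 11841, 90724 and 354674 in the same order. The part of this unlike strength in the differences below was not tested. The 2 interactions share the DMSO and NCS libraries, and the MI-1061 groups with NCS take part in the selection of genes. The values are therefore given side by side, and the test is of their difference, in which the shared controls cancel. The selection does not cancel. Libraries with NCS and MI-1061, in which all listed genes have a high mean, are subtracted in the difference, so a high value there makes it lower. The interaction of NCS and MI-1061 was positive in 721 genes (23.5%) and negative in 639 (20.8%). It was positive in 100 of the 125 positive genes and negative in 109 and positive in 10 of the 221 negative genes, with medians of 1.62 and −0.65 beside 1.35 and −1.08 for MD-224. The interactions of the compounds differed in 1196 genes: that of MD-224 was higher in 435 (14.2%) and lower in 761 (24.8%). Among the 125 positive genes 48 differed, 17 higher and 31 lower with MD-224, shares near those of all tested genes. Among the 221 negative ones 98 differed, 22 higher and 76 lower. Both sets were chosen by the interaction with MD-224, whose libraries with MD-224 also enter the difference. Their counts are thus a description and not independent of that choice. With TMM scaling 538 were higher and 594 lower, and without replicate 3 of every group 356 genes differed.

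**Figure D5:**
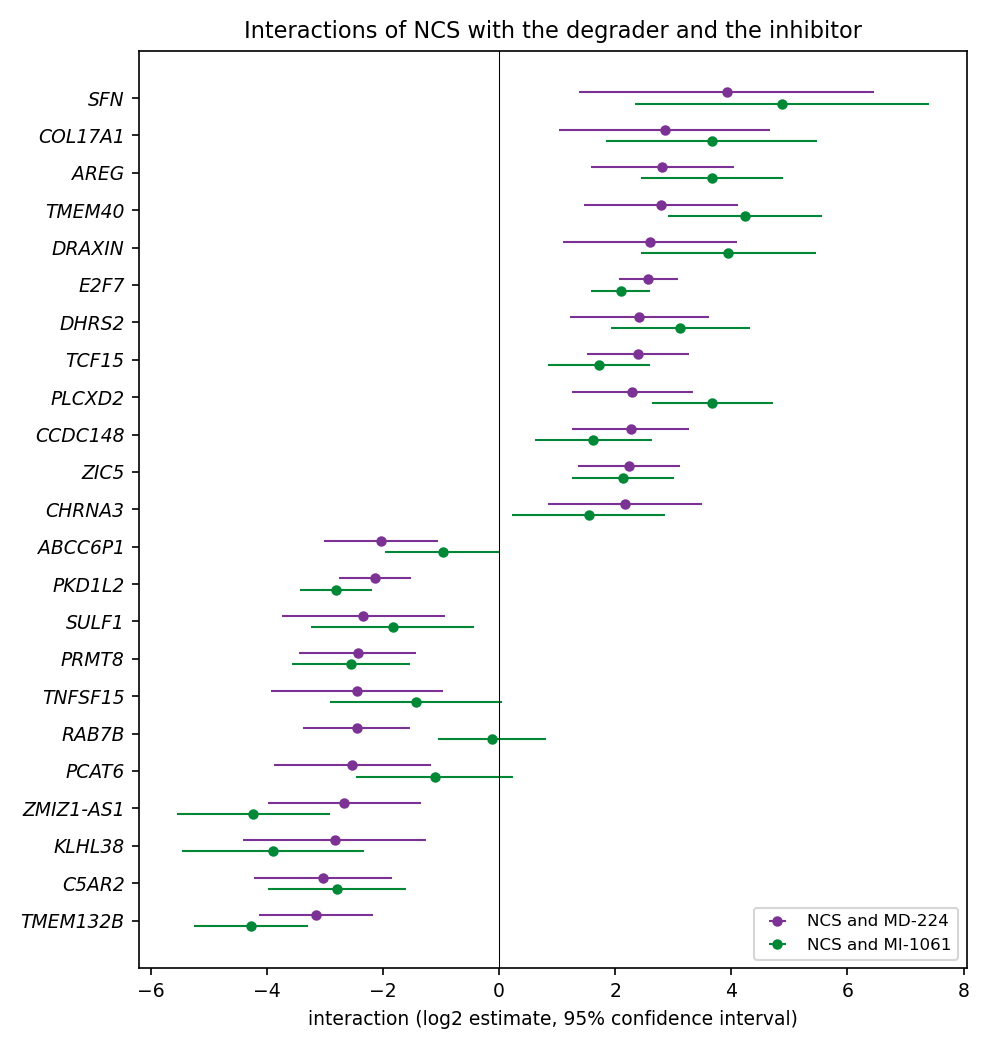
Interaction with NCS (log2) of 12 leading positive and 11 leading negative genes for MD-224 (purple) and for MI-1061 (green), with points for limma estimates and bars for 95% confidence intervals. The genes were chosen for MD-224; most MI-1061 intervals lie on the same side of 0, and RAB7B is near 0 for MI-1061 (−0.13) and at −2.45 for MD-224.

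Some leading genes differed between the compounds and others did not pass. E2F7 had interactions of 2.57 with MD-224 and 2.10 with MI-1061, a difference of 0.47 (95% confidence interval −0.04 to 0.98; limma adjusted p = 0.13). The difference was 1.14 for GRM8 (95% confidence interval 0.163 to 2.111; limma adjusted p = 0.0606) and −0.85 for AREG (95% confidence interval −2.08 to 0.37; limma adjusted p = 0.259). RAB7B had −2.45 with MD-224 and −0.13 with MI-1061 (difference −2.33; limma adjusted p = 0.000615). STAT2 had −0.81 and −0.04 (limma adjusted p of the difference 0.00117), IL7 −1.23 and 0.71 (9.19e-05) and WIPI1 −0.87 and 0.33 (9.21e-05). In these 4 genes the interaction with MD-224 was the lower one. It was the higher one in FOSL1, at 1.98 with MD-224 and 0.67 with MI-1061 (limma adjusted p of the difference 0.00652). The same held for KRT4 with −1.74 and −4.94 (2.47e-05), MAP1LC3B with −0.60 and −1.61 (4.08e-05) and CDKN1A with −0.70 and −1.45 (0.012). By list, the median interaction was −0.33 with MD-224 and −1.21 with MI-1061 for NRF2 targets, −0.51 and −1.54 for cytokines, −0.89 and −1.51 for histones, and 0.40 and −0.50 for immediate early genes; the differences of these medians were not tested. For MDM2 the difference was 0.36 (95% confidence interval −0.14 to 0.86; limma adjusted p = 0.24).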

How the data were processed

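Poly(A) RNA of SJSA-1 cells was sequenced, per the labels' protocols. The authors deposited 1 table of normalized counts (unit: signal), whose low values are multiples of 1 step per library. The submitters' processing notes list DESeq2 2.11.40.6, the aligner HISAT2 2.0.5.2, the counter featureCounts 1.6.3 and GRCh38, and give no step of their use. In 13 of 18 libraries, 10 of the 12 used, 100% of the values tested were whole multiples of 1 read within 0.01, and counts were recovered; in the other 5 they were not, so no count test was run on those.

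Values were taken as log2(value + 1), for genes reaching 10 in 3 or more libraries, into limma 3.58.1 (R 4.3.3) with a trended variance and all 6 groups of 3 libraries in 1 fit (12 residual degrees of freedom). P-values are two-sided and Benjamini-Hochberg adjusted over 3073 genes. edgeR 4.0.16 (quasi-likelihood) was run on recovered counts as an alternative. Other alternatives were the pseudocount, the filters, TMM, fewer groups, the replicate block, libraries left out and array weights.

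Genes named were MDM2 and CDKN1A, the 12 largest calls in each direction with a mean of at least 50, a RefSeq symbol and the same sign whichever of the 12 libraries was left out, and up to 3 members of each of 25 lists with the smallest p (88 genes, 1 of them not reported here). Further list members are named where a count is spelled out. The members and lists were chosen with earlier results of these data known. Residuals of like-numbered libraries correlated at −0.0196 to 0.472 over the interaction, so numbers were not treated as pairs there, but at 0.199 to 0.472 and 0.119 to 0.416 for MD-224 without and after NCS. Of 3074 symbols 2795 were current in RefSeq, 205 matched 1 synonym and 74 neither or several. The lists of DNA replication with mitosis and of mitochondrially encoded genes had 0 listed members. Plots used Python 3.11.15 with matplotlib 3.10.9.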

Additional observations from a re-analysis of the deposited data

Results flagged for a closer look

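The interaction is itself a test of whether the effect of MD-224 differs between cells without and after NCS, and it passed (limma, adjusted p under 0.05) in 125 genes in the positive and 221 in the negative direction. The interactions of MD-224 and MI-1061 differed in 1196 genes.

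Of the named genes the following passed, given as log2 interactions, and kept their call in each of the 12 fits that left out 1 library. Positive were GRM8 at 4.26, AREG at 2.81, TMEM40 at 2.79, E2F7 at 2.57, DHRS2 at 2.41, TCF15 at 2.39, PLCXD2 at 2.29, CCDC148 at 2.26, ZIC5 at 2.23, FOSL1 at 1.98, HIST1H2BJ at 1.88, EPHB3 at 1.24 and PSAT1 at 1.21. Negative were MAP1LC3B at −0.60, HIST1H2BK at −0.65, STAT2 at −0.81, WIPI1 at −0.87, C1S at −0.94, TRIM22 at −0.96, GABARAPL1 at −1.15, IL7 at −1.23, TP53INP1 at −1.25, HIST1H4H at −1.25, CSF1 at −1.25, ABCC3 at −1.29, PTCHD4 at −1.73, KRT4 at −1.74, ABCC6P1 at −2.03, PKD1L2 at −2.13, PRMT8 at −2.44, RAB7B at −2.45, ZMIZ1-AS1 at −2.66, C5AR2 at −3.03 and TMEM132B at −3.15.

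Others passed but lost the call in at least 1 of those fits. Positive were SFN at 3.92, COL17A1 at 2.85, DRAXIN at 2.60, CHRNA3 at 2.17, XIRP1 at 1.65, POLH at 1.05 and FLG at 0.80. Negative were MMP2 at −0.65, CDKN1A at −0.70, SPATA18 at −1.12, JUP at −1.50, TREM1 at −1.79, SULF1 at −2.34, TNFSF15 at −2.44, PCAT6 at −2.53 and KLHL38 at −2.83. Of all these genes GRM8 and E2F7 passed without replicate 3 of every group.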

How the results depend on the processing

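The interaction was called in 346 genes. Under the 24 alternatives the 51 called genes that were named kept their sign, and 2 of them, GRM8 and E2F7, passed under all 24 alternatives. Pseudocount, filter on low values and fewer groups in the fit left the interaction count within 1.5 times. With libraries left out, calls ranged from 4 to 412 for the interaction, 2 to 49 for list members (42 with all), 620 to 1227 for MD-224 without NCS (1311 with all), 163 to 463 for MD-224 after NCS (465), 649 to 1391 for the interaction with MI-1061 (1360) and 356 to 1206 for the difference of the interactions (1196). The lowest counts were those without replicate 3 of every group, which leaves fewer samples; for the interaction 160 and 178 remained without replicate 1 or 2. With the replicate number as a block the interaction had 612 calls, with all 346 among them, list members 80 and MD-224 after NCS 755. For the interaction the numbers are a hint of pairing only: 11 of 12 libraries correlated best with their own number. With TMM scaling MD-224 had 684 calls without NCS and 122 after it, and with only the compared groups 809 without NCS. Settings chosen after the data were seen were edgeR and limma on the 13 libraries with recovered reads, and array weights. For the interaction, list members and MD-224 after NCS, edgeR gave 55, 6 and 165 calls. Limma on the same libraries gave 52, 5 and 159, and array weights gave 692, 88 and 866. The 13 libraries lack NCS replicate 3 and NCS+MD-224 replicate 2, among others. How many libraries were lost and which ones therefore cannot be told apart. The causes of these shifts were not tested. Genes with low counts in DMSO or MD-224 have the least certain estimates, and genes outside the deposited selection were not analysed here.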

Other observations

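Some genes outside the rule for named genes passed in all 12 fits that left out 1 library, and are given as values, chosen after these were seen. The interaction was positive in 4 of them. The receptor tyrosine kinase gene FGFR2 had mean normalized counts of 386 ± 35.8 (SD, n = 3) with DMSO, 137 ± 32.9 with MD-224, 143 ± 29.6 with NCS and 227 ± 42.1 with both, an interaction of 2.17 (limma adjusted p = 0.000638). MET, the receptor of hepatocyte growth factor, had 4989 ± 1959, 2300.1 ± 227, 3737 ± 325 and 7165 ± 1928 in the same order (log2 1.96; limma adjusted p = 0.00164), and KITLG, the ligand of KIT, 1133 ± 599.7, 755 ± 108, 1345 ± 292 and 3256 ± 946 (log2 1.72; limma adjusted p = 0.0132). XRCC4, a partner of DNA ligase in end joining, had 564 ± 3.48, 261 ± 30.97, 311 ± 38.1 and 609 ± 246, an interaction of 2.01 (limma adjusted p = 0.000859).

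It was negative in the other 4. CDKN2B, the cell-cycle inhibitor p15, had 1838 ± 401, 5309 ± 779.8, 4826 ± 413 and 5086 ± 496 (log2 −1.47; limma adjusted p = 0.000638). PIK3IP1, an inhibitor of PI3 kinase, had 188 ± 64.6, 868 ± 179, 1006 ± 131 and 1380.0 ± 136 (log2 −1.79; limma adjusted p = 0.00615), and the histone demethylase gene KDM5B 3829.9 ± 431, 7198 ± 209, 6289 ± 35.2 and 6085 ± 285 (log2 −0.96; limma adjusted p = 0.000847). TP53INP2, an autophagy factor related to TP53INP1, had an interaction of −1.69 (limma adjusted p = 0.000318). All 8 genes of these paragraphs also passed with TMM scaling, with limma adjusted p of 0.000171 to 0.0122. That scaling moved the median interaction upward, so it is a weak check of the positive ones.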
